A study of Mus musculus with 12 samples.

Results

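The 8 genes described here distinguish arteries from veins, and were followed through blood formation from mouse embryonic stem cells. The cells carried the leukaemia fusion RUNX1-EVI1 under doxycycline control and were compared with and without doxycycline. The set was fixed by name. It holds 6 arterial genes (Gja4, Gja5, Efnb2, Bmx, Unc5b and Nrp1) and 2 venous genes (Ephb4 and Nr2f2), which are 8 of the 35976 gene names in the data. All 8 met the requirement for testing, an expression value of at least 1 FPKM (sequenced fragments relative to the length of the transcript and to the library's total) in at least 2 of the 12 libraries, as did 13316 genes in all. Bmx met it only through libraries from doxycycline-treated cells: 3 libraries reached 1 FPKM, all of them PlusDox HE1 or PlusDox HE2, so Bmx could only be tested because it was higher there.

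Arterial and venous endothelial cells differ in the genes they express before blood begins to flow. VEGF and Notch signals promote the arterial state, in which cells carry the ligand ephrin-B2 and the gap junction proteins connexin 37 and connexin 40. The nuclear receptor COUP-TFII, the product of Nr2f2, represses Notch and neuropilin-1 in veins, where the receptor EphB4 predominates. In the embryo, hemogenic endothelium that gives rise to blood stem cells lies mainly in arteries, and cells lose endothelial genes as they become blood.

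The cells were A2lox.cre mouse embryonic stem cells carrying a doxycycline-inducible RUNX1-EVI1 construct, which all 6 groups share. No group holds treated cells without the construct, so effects of doxycycline and of the fusion cannot be told apart. The engineered line was grown from individual colonies, and the labels leave unsaid whether the replicates come from 1 clone or several. FLK1-positive cells purified from embryoid bodies were cultured with VEGF and IL-6, received 0 µg/ml (NoDox) or 0.5 µg/ml (PlusDox) doxycycline for the last 18 hours, and were sorted as hemogenic endothelium 1 (HE1), hemogenic endothelium 2 (HE2) or hematopoietic progenitors (HP). Each of the 6 groups has 2 libraries, described as biological replicates, and the surface markers used in the sort are not named in the labels.

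The levels of marker genes followed the labelled populations. The summed FPKM of 10 endothelial markers (Cdh5, Pecam1, Kdr, Tek, Tie1, Esam, Cldn5, Erg, Egfl7 and Emcn) was 1588 to 2192 in HE1 libraries, 906 to 1746 in HE2 and 169 to 411 in HP. That of 10 blood markers was 90.9 to 228 in HE1 libraries, 1274 to 1676 in HE2 and 6540 to 11705 in HP. Mecom, the EVI1 gene, ran from 17.0 to 28.3 FPKM in NoDox HE1 and from 18.1 to 23.0 FPKM in PlusDox HE1. It ran from 6.08 to 13.9 against 18.4 to 20.2 FPKM in HE2, and from 0.194 to 0.205 against 5.18 to 5.51 FPKM in HP, so Mecom separated treated from untreated libraries in HE2 and HP and not in HE1. Runx1, the gene of the fusion's other part, overlapped between NoDox and PlusDox in each population. It ran from 1.41 to 3.56 against 0.993 to 3.99 FPKM in HE1 and from 29.4 to 36.8 against 21.3 to 35.8 FPKM in HE2. In HP its range was 56.0 to 67.4 against 15.2 to 62.0 FPKM. In 5 libraries (replicate 1 of NoDox HE1, and replicate 2 of NoDox HP and of all PlusDox groups) 3 features, Lars2, Mir6236 and LOC101056014, made up 8.81% to 16.85% of the summed FPKM, against 0.35% to 0.59% in the other 7.

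The promoter windows of Gja5, Bmx and Gja4 are shown because these 3 genes were called higher with doxycycline in HE2, as were 3.82% of all tested genes. Each window is the 250 bases before the gene's RefSeq start in GRCm38.p6 (mm10), written 5′ to 3′ on the gene's strand, at chr3:97032152-97032401 (plus strand) for Gja5, chrX:164258194-164258443 (minus strand) for Bmx and chr4:127314040-127314289 (minus strand) for Gja4. Capitals mark matches to the searched motifs.
Gja5: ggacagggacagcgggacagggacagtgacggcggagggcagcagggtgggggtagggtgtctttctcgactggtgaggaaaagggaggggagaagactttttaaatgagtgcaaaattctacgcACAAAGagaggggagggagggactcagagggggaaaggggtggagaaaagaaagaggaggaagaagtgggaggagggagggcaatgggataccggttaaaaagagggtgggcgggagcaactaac
Bmx: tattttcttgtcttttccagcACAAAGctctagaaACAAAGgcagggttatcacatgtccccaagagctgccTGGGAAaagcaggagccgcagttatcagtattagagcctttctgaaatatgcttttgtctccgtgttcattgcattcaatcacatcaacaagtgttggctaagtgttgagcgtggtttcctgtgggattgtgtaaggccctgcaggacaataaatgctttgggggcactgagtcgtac
Gja4: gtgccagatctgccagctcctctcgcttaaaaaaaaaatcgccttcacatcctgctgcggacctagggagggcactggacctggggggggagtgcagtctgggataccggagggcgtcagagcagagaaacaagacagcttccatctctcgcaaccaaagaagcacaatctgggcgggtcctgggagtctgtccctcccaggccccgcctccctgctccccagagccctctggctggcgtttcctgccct
A search for 5 short motifs covered both strands of all 8 windows. The Nrp1 window precedes a RefSeq start that lies inside the annotated span of the gene, and the other 7 adjoin the span. Matches of TGGGAA and GGAAGT can overlap. The RUNX core TGTGGT had a match in 0 of 8, against 14.0% of 32851 promoter windows of the same length, and the core AGATAA, shared by sites of GATA factors and EVI1, in 0 of 8, against 10.0%. The RBPJ core TGGGAA, the site class of Notch signalling, matched in 1 of 8 (Bmx, from base -178), against 21.6%. The ETS core GGAAGT matched in 1 of 8 (Ephb4), against 19.7%. The SOX core ACAAAG, added after the windows had been read, matched in 2 of 8, in Gja5 from base -125 and in Bmx with 2 matches, against 16.5%. The Gja4 window held no match to any of the 5 motifs. The Gja5 window was 76.8% purines on the gene's strand, and those of the other members ran from 41.2% (Ephb4) to 64.0% (Nrp1), with Gja4 at 48.8%. The purine share over all promoter windows was not computed.

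Gja5 encodes connexin 40, a gap junction protein of arterial endothelium. The gene lies at chromosome 3, 97032402 to 97053634. In HE1 it stood at 1.76 and 12.9 FPKM in the NoDox libraries and at 36.7 and 49.5 FPKM in the PlusDox libraries. In HE2 it stood at 0.61 and 5.40 FPKM without and at 19.5 and 35.5 FPKM with doxycycline. Every treated HE1 and HE2 library was above every untreated one. In HP it was listed at 0 in both NoDox libraries and at 0.199 and 0.662 FPKM in the PlusDox libraries. The difference with doxycycline passed the test in HE2, at 3.09 on the log2(FPKM + 1) scale (standard error 0.69, limma adjusted p = 0.0226), and missed it in HE1, at 2.82 (standard error 0.69, adjusted p = 0.0785). Of the 12 fits that left out 1 library, 10 kept the HE2 call. It was lost without NoDox HE2 replicate 1 (2.096, adjusted p = 0.204) and without PlusDox HE2 replicate 2 (2.67, adjusted p = 0.155). In HE1 the gene passed in 3 of those 12 fits, without NoDox HE1 replicate 2 (3.98, adjusted p = 0.0254) and without either NoDox HE2 replicate (adjusted p = 0.0337 and 0.0339).

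Gja4 encodes connexin 37, the other arterial gap junction protein of the set, and lies at chromosome 4, 127311420 to 127314039. It stood at 56.7 and 78 FPKM in NoDox HE1 and at 87.9 and 65.6 FPKM in PlusDox HE1, where the groups overlapped. In HE2 the NoDox libraries stood at 25.3 and 37.4 FPKM and the PlusDox libraries at 77.8 and 67.3 FPKM, with no overlap. In HP it stood at 5.11 and 5.09 FPKM without and at 7.34 and 4.67 FPKM with doxycycline. Gja4 thus rose with doxycycline in HE2, by 1.21 (standard error 0.26, adjusted p = 0.0178), while the differences of 0.19 in HE1 (adjusted p = 0.952) and 0.17 in HP (adjusted p = 0.982) did not pass. Its level in treated HE2 lay within the range of both HE1 groups. The HE2 call was lost without NoDox HE2 replicate 1 (0.93, adjusted p = 0.179), PlusDox HE2 replicate 1 (1.10, adjusted p = 0.0712) or PlusDox HE2 replicate 2 (1.31, adjusted p = 0.0676).

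Bmx encodes a Tec family tyrosine kinase found in arterial endothelium, at chromosome X, 164192842 to 164258193. It stood at 0.178 and 0.147 FPKM in NoDox HE1 and at 2.42 and 0.924 FPKM in PlusDox HE1. In HE2 it was listed at 0 and stood at 0.119 FPKM without doxycycline, and stood at 1.58 and 2.02 FPKM with it. In HP it was listed at 0 in both NoDox libraries and at 0.00712 and 0.0272 FPKM in the PlusDox libraries. All 4 treated HE libraries were above all untreated ones, at levels that stayed low. Bmx rose by 1.14 in HE1 (standard error 0.245, adjusted p = 0.0454) and by 1.40 in HE2 (standard error 0.245, adjusted p = 0.00666). The HE2 call was lost without NoDox HE2 replicate 1 (1.32, adjusted p = 0.0683) or PlusDox HE2 replicate 2 (1.29, adjusted p = 0.0631). The HE1 call was held in 1 of the 12 fits that left out 1 library, the one without PlusDox HE1 replicate 2, and without PlusDox HE1 replicate 1 the difference was 0.73 (adjusted p = 0.201). Since its values lie near the added constant of 1, a constant of 0.1 changed the differences to 2.618 in HE1 (adjusted p = 0.107) and 3.67 in HE2.

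**Figure D1:**
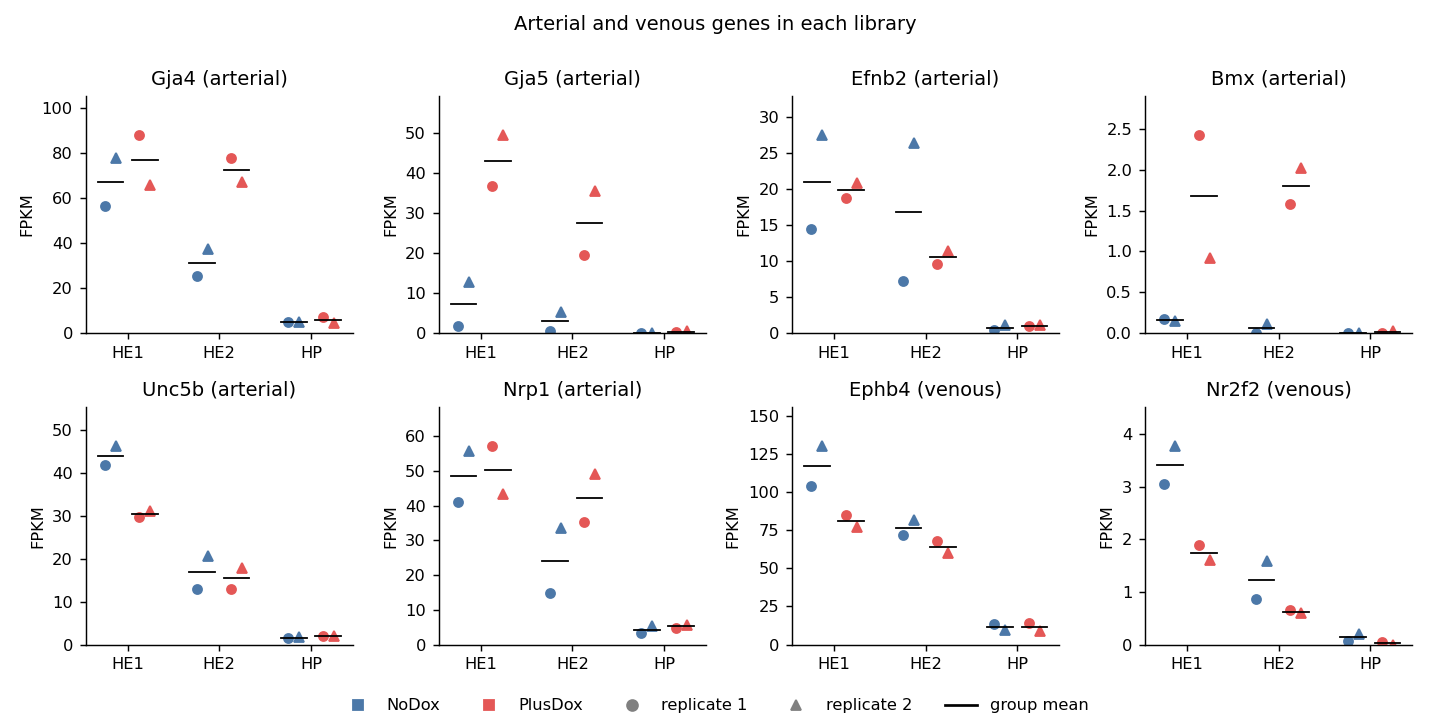
Expression in FPKM (y axis, a linear scale per panel) of the 6 arterial and 2 venous genes in HE1, HE2 and HP, with NoDox in blue, PlusDox in red, circles for replicate 1, triangles for replicate 2 and lines for the group means. Gja5 and Bmx are higher in the 4 PlusDox HE1 and HE2 libraries than in all others, with Bmx still low there, at 0.924 to 2.42 FPKM. Gja4 in PlusDox HE2 lies within the range of HE1, and within each treatment all 8 genes have their lowest mean in HP.

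Efnb2 encodes ephrin-B2, the arterial ligand of EphB4, and lies at chromosome 8, 8617235 to 8661242. It stood at 14.5 and 27.5 FPKM in NoDox HE1 and at 18.8 and 20.9 FPKM in PlusDox HE1. In HE2 it stood at 7.27 and 26.4 FPKM without and at 9.67 and 11.4 FPKM with doxycycline, and in HP at 0.425 and 1.14 FPKM without and at 1.00 and 1.10 FPKM with it. Treated and untreated libraries overlapped in all 3 populations, and the untreated HE2 replicates were the farthest apart. The differences were -0.01 in HE1 (adjusted p = 1.0), -0.39 in HE2 (adjusted p = 0.664) and 0.23 in HP (adjusted p = 0.99), with a standard error of 0.45 in each, and none passed. The sign in HE1 turned to 0.05 with median scaling or quantile normalization.

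Ephb4, the venous receptor of ephrin-B2, lies at chromosome 5, 137350109 to 137374522. It stood at 104 and 130 FPKM in NoDox HE1, at 71.6 and 81.4 FPKM in NoDox HE2 and at 13.4 and 9.53 FPKM in NoDox HP. With doxycycline it stood at 85.3 and 77.1 FPKM in HE1, at 67.9 and 60.2 FPKM in HE2 and at 14.0 and 9.06 FPKM in HP. The treated libraries were below the untreated ones in HE1 and in HE2 and overlapped with them in HP. The differences of -0.51 in HE1 (standard error 0.23, adjusted p = 0.492) and -0.25 in HE2 (standard error 0.23, adjusted p = 0.565) did not pass. Since FPKM values are scaled by transcript length, the levels of these genes can be set side by side: Ephb4 was the highest of the 8 in 9 of the 12 libraries and Gja4 in the other 3, which were PlusDox HE1 and HE2 libraries.

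Unc5b encodes a netrin receptor of arterial and sprouting endothelium, at chromosome 10, 60762594 to 60831581. It stood at 41.7 and 46.1 FPKM in NoDox HE1 and at 29.7 and 31.1 FPKM in PlusDox HE1, so the treated libraries were lower there. In HE2 it stood at 13.0 and 20.7 FPKM without and at 12.9 and 17.9 FPKM with doxycycline, with overlap, and in HP at 1.45 and 1.72 FPKM without and at 1.96 FPKM in both libraries with it. The differences were -0.51 in HE1 (standard error 0.23, adjusted p = 0.488), -0.10 in HE2 (adjusted p = 0.832) and 0.20 in HP (adjusted p = 0.961), and none passed. In HE1 this arterial gene and both venous genes therefore lay on the same side, below the untreated libraries, where Gja5 and Bmx lay above.

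Nrp1 encodes neuropilin-1, a co-receptor for VEGF and semaphorins, at chromosome 8, 128358591 to 128505476. It stood at 41.1 and 55.9 FPKM in NoDox HE1 and at 57.1 and 43.5 FPKM in PlusDox HE1, an overlap. In HE2 it stood at 14.8 and 33.6 FPKM without and at 35.4 and 49.1 FPKM with doxycycline, where the treated libraries were higher by a narrow gap, and in HP at 3.29 and 5.25 FPKM without and at 4.80 and 5.71 FPKM with it. The HE2 difference of 0.87 (standard error 0.34, adjusted p = 0.151) did not pass, and it passed without NoDox HE2 replicate 2 (1.44, adjusted p = 0.0233).

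Nr2f2, the venous regulator COUP-TFII, lies at chromosome 7, 70351946 to 70366746. It stood at 3.05 and 3.77 FPKM in NoDox HE1 and at 1.89 and 1.60 FPKM in PlusDox HE1. In HE2 it stood at 0.857 and 1.59 FPKM without and at 0.648 and 0.603 FPKM with doxycycline, and in HP at 0.0671 and 0.205 FPKM without and at 0.0469 FPKM and listed at 0 with it. The treated libraries were below the untreated ones in all 3 populations. The differences of -0.68 in HE1 (standard error 0.21, adjusted p = 0.178), -0.43 in HE2 (adjusted p = 0.247) and -0.15 in HP (adjusted p = 0.979) did not pass. Its 6 group means fell in the order NoDox HE1, PlusDox HE1, NoDox HE2, PlusDox HE2, NoDox HP and PlusDox HP, and the libraries of neighbouring groups in that order did not overlap.

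Across the set, doxycycline went with higher values of 1 member in HE1 and of 3 members in HE2, all arterial, and with 0 members lower at the limma adjusted p threshold of 0.05. In HE1 the member was Bmx, where 0.961% of all tested genes were called higher and 0.406% lower. In HE2 the members were Gja5, Bmx and Gja4, where 3.82% of tested genes were called higher and 2.24% lower. Bmx, which entered the test only through these treated libraries, had to differ to be counted. The libraries of the compared groups did not overlap for 5 of 8 members in HE1, 6 in HE2 and 4 in HP, against 35.6%, 50.3% and 33.7% of all tested genes. In HP limma called 0 of 8 members, where 0.834% of tested genes were called in either direction, and 0 of 8 had an unadjusted p below 0.05, against 9.39%. The median difference of the 6 arterial genes was 0.12 in HE1, 1.04 in HE2 and 0.21 in HP, against -0.07, -0.05 and 0.00 over all tested genes. Both venous genes were below 0 in HE1 and HE2, with medians of -0.60 and -0.34, and in HP Ephb4 changed sign with median scaling (0.01).

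The endothelial markers moved as well, so the HE2 differences were also computed relative to them. Their summed FPKM was 906 and 1376 in NoDox HE2 and 1746 and 1703 in PlusDox HE2, and 3 of the 10 (Cldn5, Egfl7 and Esam) were called higher there. Of the 10, 0 were listed at 0 in any HE library. In HE1 the sums were 1588 and 2192 without and 2024 and 1761 with doxycycline, with 0 of the 10 called. In HP they were 169 to 194 FPKM without and 305 to 411 FPKM with doxycycline, with no overlap, and 2 of the 10 (Cdh5 and Egfl7) were called higher. The median difference of the 10 was 0.13 in HE1, 0.59 in HE2 and 0.66 in HP. With each library centred on these markers, an alternative chosen after the data were seen, the HE2 difference was 2.46 for Gja5 (adjusted p = 0.000625), 0.58 for Gja4 (adjusted p = 0.139) and 0.77 for Bmx (adjusted p = 0.109). Centring moved the median of all tested genes in HE2 from -0.05 to -0.67 and 24.5% of them were called lower, among them Efnb2 (-1.02, adjusted p = 0.0374), Ephb4 (-0.88, adjusted p = 0.0465) and Nr2f2 (-1.06, adjusted p = 0.0314), so these 3 calls are not read as falls of their own. In HE1, where the median with centring was -0.09, Gja5 passed at 2.79 (adjusted p = 0.000422) and Bmx did not, at 1.12 (adjusted p = 0.318). In bulk libraries, fewer cells of a type and less RNA per cell cannot be told apart. Summed blood markers overlapped in HE2, at 1529 to 1597 FPKM without and 1274 to 1676 FPKM with doxycycline. Of those 10 genes, 3 were called higher, against 3.82% of all tested genes, while the other 7 lay below 0 (median of the 10 -0.19). Summed mesenchymal and smooth muscle markers were 128 to 211 FPKM in NoDox HE1 and 238 to 319 FPKM in PlusDox HE1, with 0 of 8 tested genes called, and their part in the HE1 differences was not tested.

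Both NoDox HE2 libraries belong to the 7 in which the 3 features are low, while PlusDox HE2 replicate 2 belongs to the other 5. Among the 7 libraries alone, the HE2 differences were 2.67 for Gja5, 1.31 for Gja4 and 1.29 for Bmx, the same direction as in the full fit. Only NoDox HE2 keeps both of its libraries there, so that fit has almost no spread to test by and its calls are not weighed. With the class of library as a term in the fit, the 3 HE2 calls held, and Bmx in HE1 did not (1.14, adjusted p = 0.0588).

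**Figure D2:**
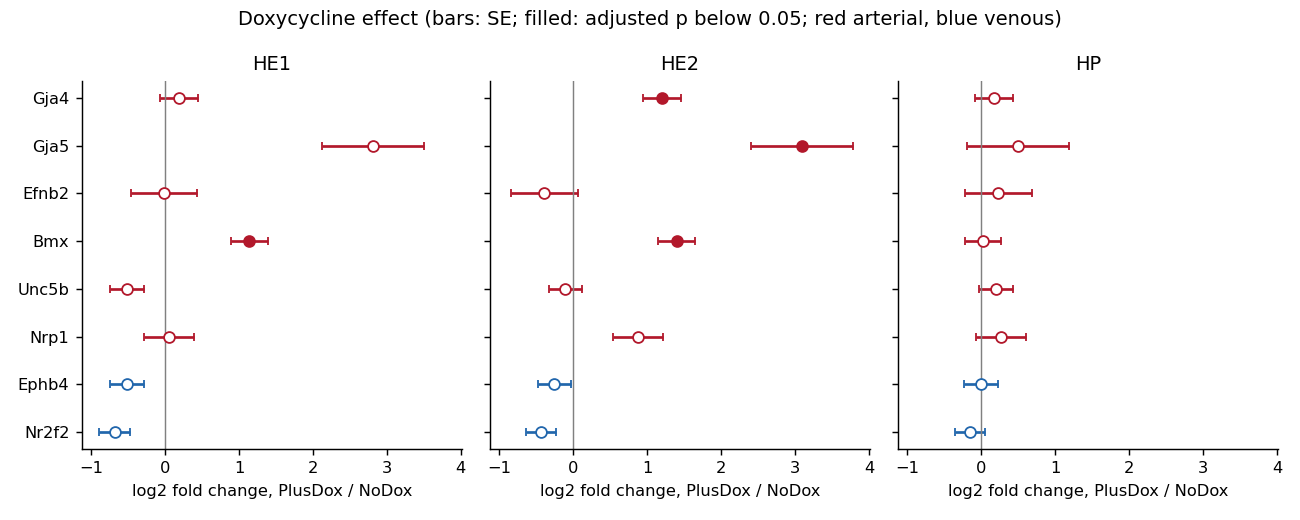
PlusDox minus NoDox difference of each of the 8 genes on the log2(FPKM + 1) scale (x axis) in HE1, HE2 and HP, with the arterial genes in red, the venous genes in blue, bars for the standard error and filled points for a limma adjusted p below 0.05. Filled points are Bmx in HE1 and Gja4, Gja5 and Bmx in HE2, and no point is filled in HP, where the untreated libraries of Gja5 and Bmx are listed at 0.

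Whether the doxycycline effect differed between populations was tested directly. The test called 0 of 8 members in each of the 3 comparisons of effects. Unadjusted p was below 0.05 for 1 member in HE2 against HE1, 3 members in HP against HE2 and 3 members in HP against HE1, against 6.7%, 6.57% and 6.53% of all tested genes. Bmx is counted in both HP comparisons. It entered the test only through treated HE1 and HE2 libraries, which favoured a smaller effect in HP, so it is no separate evidence there. At the adjusted threshold 0.0451%, 0.015% and 0.0375% of tested genes were called. The Gja4 effect in HE2 exceeded that in HE1 by 1.02 (standard error 0.36, adjusted p = 0.534). The Gja5 effect was -2.59 in HP relative to HE2 (standard error 0.97, adjusted p = 0.626) and that of Bmx was -1.37 (standard error 0.35, adjusted p = 0.388), both resting on NoDox HP libraries listed at 0. So the calls in HE2 and their absence in HP or HE1 are not shown to be a difference between the populations. The 3 comparisons share groups.

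**Figure D3:**
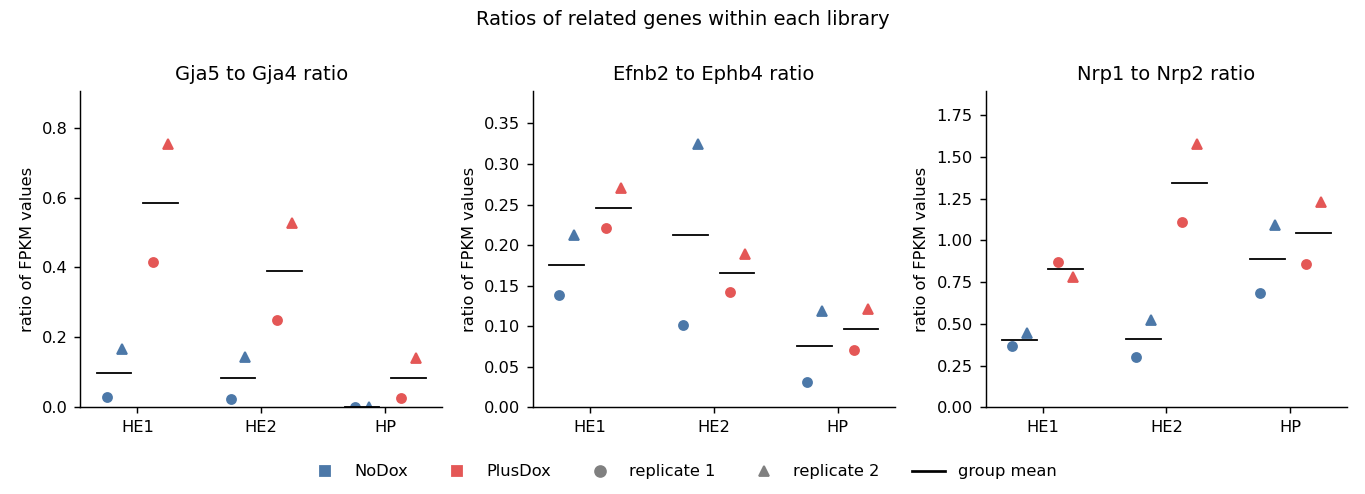
Ratio of FPKM values within a library (y axis) of Gja5 to Gja4, Efnb2 to Ephb4 and Nrp1 to Nrp2 in HE1, HE2 and HP, with NoDox in blue, PlusDox in red, circles for replicate 1, triangles for replicate 2 and lines for group means. The treated HE1 and HE2 libraries are above the untreated ones for the Gja5 to Gja4 and Nrp1 to Nrp2 ratios, and those of the Efnb2 to Ephb4 ratio overlap in HE2.

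Ratios within a library do not depend on how libraries are scaled. The Gja5 to Gja4 ratio was 0.031 and 0.166 in NoDox HE1 and 0.417 and 0.754 in PlusDox HE1. It was 0.0241 and 0.144 in NoDox HE2 and 0.25 and 0.528 in PlusDox HE2. Connexin 40 therefore made up more of the transcripts of the pair in every treated HE library than in any untreated one. The Efnb2 to Ephb4 ratio, ligand to receptor, was 0.139 and 0.212 in NoDox HE1 and 0.221 and 0.27 in PlusDox HE1. It was 0.101 and 0.325 in NoDox HE2 and 0.142 and 0.189 in PlusDox HE2, an overlap. The Nrp1 to Nrp2 ratio, chosen after its values were seen, sets neuropilin-1 against its venous and lymphatic relative neuropilin-2. It was 0.365 and 0.448 in NoDox HE1 and 0.874 and 0.782 in PlusDox HE1, and 0.301 and 0.523 in NoDox HE2 and 1.11 and 1.58 in PlusDox HE2. In HE1 Nrp1 itself differed by only 0.05 (limma adjusted p = 0.994). The higher ratio there therefore goes with lower Nrp2, described below, and is not separate from it. In HP the Nrp1 to Nrp2 ratio was 0.684 and 1.09 without and 0.858 and 1.23 with doxycycline, an overlap.

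Along the path from HE1 to HE2 to HP, members were lower at each step where they were called. Without doxycycline, 3 of 8 members fell from HE1 to HE2, against 4.45% of all tested genes called lower: Unc5b at -1.36 (adjusted p = 0.00389), Gja4 at -1.09 (adjusted p = 0.0204) and Nr2f2 at -1.002 (adjusted p = 0.0116). The calls of Gja4 and Nr2f2 were lost without NoDox HE1 replicate 2 (adjusted p = 0.199 and 0.13) or NoDox HE2 replicate 1 (adjusted p = 0.211 and 0.134), and that of Unc5b without NoDox HE1 replicate 2 (adjusted p = 0.053). Nrp1 (-1.07, adjusted p = 0.0652) and Ephb4 (-0.60, adjusted p = 0.114) missed the threshold, and with median scaling both passed, at -1.24 (adjusted p = 0.0459) and -0.78 (adjusted p = 0.00778). The median of all tested genes was 0.16 in this step and 0.02 with median scaling.

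With doxycycline, 2 of 8 members fell from HE1 to HE2, against 2.89% of tested genes called lower. They were Unc5b at -0.95 (adjusted p = 0.0233) and Nr2f2 at -0.75 (adjusted p = 0.0433). The Unc5b call was lost without PlusDox HE1 replicate 1 (adjusted p = 0.0721), PlusDox HE1 replicate 2 (adjusted p = 0.114) or PlusDox HE2 replicate 1 (adjusted p = 0.192), and the Nr2f2 call in 10 of the 12 fits that left out 1 library. Gja4 stood at -0.07 (standard error 0.26, adjusted p = 0.89), where the untreated step gave -1.09. The difference between these steps is the comparison of effects given above for Gja4, and it did not pass.

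From HE2 to HP, 6 of 8 members fell without doxycycline, against 10.6% of tested genes called lower. They were Efnb2 (-3.11, adjusted p = 0.000505), Unc5b (-2.76, adjusted p = 1.19e-05), Ephb4 (-2.65, adjusted p = 1.52e-05), Gja4 (-2.38, adjusted p = 6.72e-05), Nrp1 (-2.17, adjusted p = 0.000836) and Nr2f2 (-0.95, adjusted p = 0.00737). Gja5 and Bmx, listed at 0 in both NoDox HP libraries, did not pass (adjusted p = 0.131 and 0.881). The Gja5 difference of -1.68 ran from -0.69 to -2.68 in the fits that left out 1 library, and it passed without NoDox HE2 replicate 1 (-2.68, adjusted p = 0.0238), with an added constant of 0.1 (-4.30, adjusted p = 0.00893) and with only the groups compared (adjusted p = 0.0355). With doxycycline all 8 members fell, against 10.9% of tested genes called lower, and no HP library overlapped an HE2 library for any of them, as for 51.2% of tested genes. Bmx entered the test only through treated HE1 and HE2 libraries, so its fall here was favoured by that filter and is no separate evidence. Gja5 showed -4.28 (adjusted p = 0.0011), Gja4 -3.41 (adjusted p = 9.18e-06), Nrp1 -2.78 (adjusted p = 0.000174), Efnb2 -2.49 (adjusted p = 0.00236), Unc5b -2.45 (adjusted p = 3.1e-05), Ephb4 -2.40 (adjusted p = 3.75e-05), Bmx -1.46 (adjusted p = 0.00151) and Nr2f2 -0.67 (adjusted p = 0.0449). Nr2f2 and Bmx lie near the added constant of 1. With a constant of 0.1 the Nr2f2 difference was -2.49 without and -2.58 with doxycycline, and that of Bmx was -4.01 with it, so their sizes are not ranked against those of the other members. The Nr2f2 call was lost in 2 of the 12 fits that left out 1 library without doxycycline (NoDox HE2 replicate 2, adjusted p = 0.0839, and NoDox HP replicate 1, adjusted p = 0.0567) and in 8 of 12 with it. All 10 endothelial markers were called lower in this step in both conditions, with medians of -2.95 and -2.52.

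**Figure D4:**
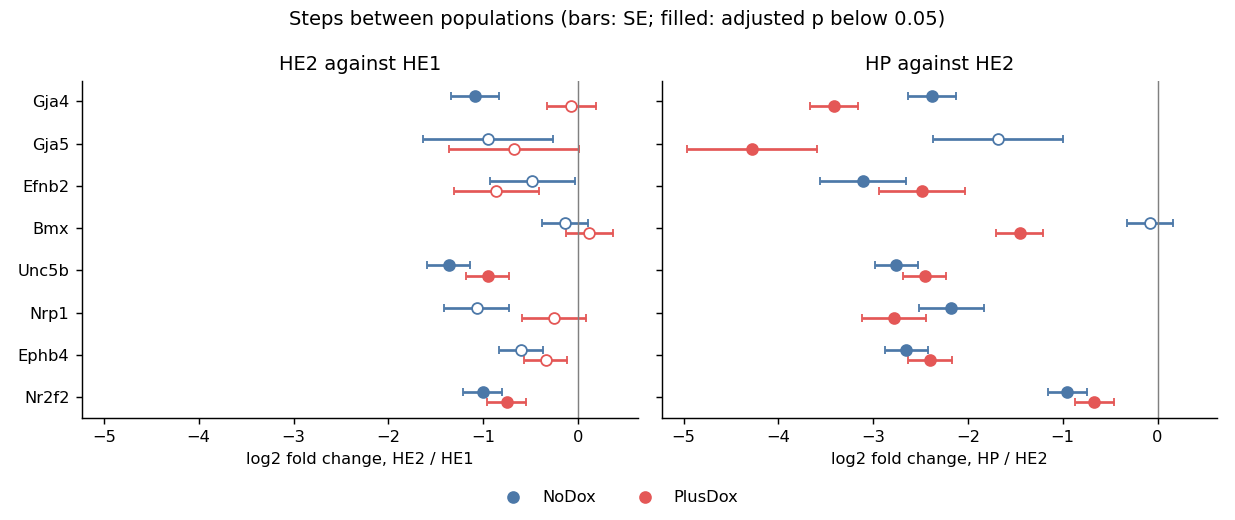
Difference of each of the 8 genes between populations on the log2(FPKM + 1) scale (x axis), HE2 minus HE1 on the left and HP minus HE2 on the right, NoDox in blue and PlusDox in red, with bars for the standard error and filled points for a limma adjusted p below 0.05. In the step to HP all 8 PlusDox points are filled, from -0.67 for Nr2f2, whose size depends on the added constant, to -4.28 for Gja5. Bmx could be tested only through treated HE1 and HE2 libraries, which favoured its fall with doxycycline. The Gja4 step from HE1 to HE2 is filled without doxycycline only.

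Other arterial and venous genes were read from lists of known markers. These lists were chosen with earlier results of these data known, so their counts are a description and give no independent support. Of 15 further arterial genes, all tested, 3 rose with doxycycline in HE1, against 0.961% of all tested genes, and 9 in HE2, against 3.82%, with none called lower. Their median difference was 0.98 in HE1, 1.45 in HE2 and 0.36 in HP, where 0 of 15 were called. In HE1 the 3 were Cxcr4, a chemokine receptor, at 1.85 (adjusted p = 0.0345), the Notch ligand Dll4 at 1.84 (adjusted p = 0.0469) and the Notch ligand Jag1 at 1.18 (adjusted p = 0.0301). In HE2 the 4 with the highest differences were Cxcr4 at 2.70 (adjusted p = 0.00211), the secreted semaphorin Sema3g at 2.18 (adjusted p = 0.0101), Dll4 at 1.99 (adjusted p = 0.0137) and the membrane protein Tmem100 at 1.64 (adjusted p = 0.0122). The HE1 calls of Cxcr4, Dll4 and Jag1 were lost in 5, 10 and 6 of the 12 fits that left out 1 library, among them the one without NoDox HE1 replicate 1 (adjusted p = 0.376, 0.471 and 0.346). In HE2 the Cxcr4 call held in all 12, and those of Sema3g, Dll4 and Tmem100 in 10, 9 and 10. Leaving out NoDox HE2 replicate 1 ended the calls of Sema3g, Dll4 and Tmem100 (adjusted p = 0.0821, 0.122 and 0.0982), and leaving out a PlusDox HE2 library ended the others. With each library centred on the endothelial markers, Tmem100 in HE2 (1.01, adjusted p = 0.0533) and Jag1 in HE1 (1.15, adjusted p = 0.104) no longer passed. The calls of Cxcr4 and Dll4 in both HE populations and of Sema3g in HE2 held with that centring.

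Of 9 further venous and lymphatic genes, 6 were tested, and 2 were called lower in both HE populations, against 0.406% of all tested genes in HE1 and 2.24% in HE2. They were the apelin receptor gene Aplnr, at -2.13 in HE1 (adjusted p = 0.0067) and -1.39 in HE2 (adjusted p = 0.0219), and Nrp2, at -0.96 in HE1 (adjusted p = 0.0233) and -0.82 in HE2 (adjusted p = 0.0232). Without NoDox HE2 replicate 2 the HE2 difference of Aplnr was -0.80 (adjusted p = 0.0818) and that of Nrp2 was -0.63 (adjusted p = 0.117). The HE2 call of Aplnr was also lost without either PlusDox HE2 library, and the Nrp2 calls were lost in each population without any 1 of its 4 libraries. The HE1 call of Aplnr was lost without NoDox HE1 replicate 1 (-2.22, adjusted p = 0.0806). With each library centred on the endothelial markers, the HE1 call of Nrp2 was lost (-0.99, adjusted p = 0.248), while that of Aplnr held. Flt4, Lyve1, Emcn and Ackr1 were not called. Emcn (0.36 in HE1 and 0.91 in HE2) and Ackr1 (0.33 and 0.82) lay above 0 in both, and Ackr1 stood at 3.94 and 4.41 FPKM in NoDox HE2 and at 8.90 and 7.43 FPKM in PlusDox HE2 (adjusted p = 0.0826). The medians of the 6 were -0.71 in HE1, -0.41 in HE2 and -0.05 in HP.

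**Figure D5:**
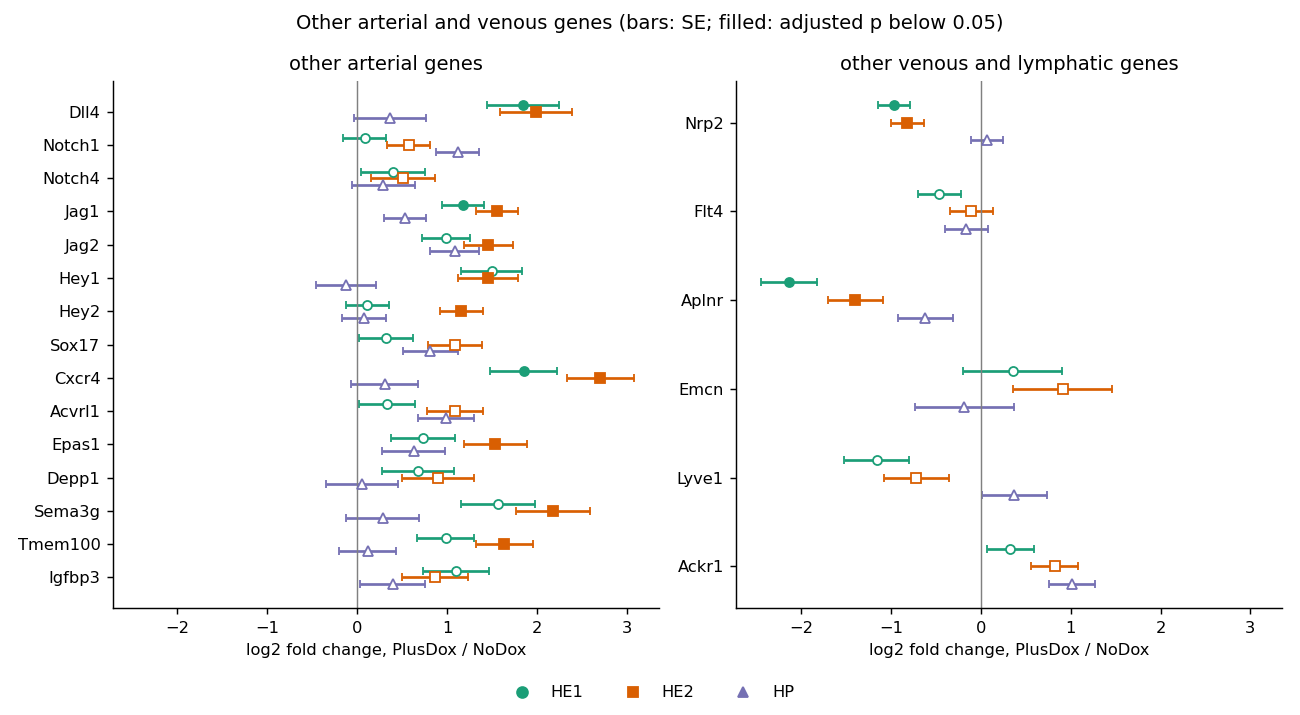
PlusDox minus NoDox difference on the log2(FPKM + 1) scale (x axis) of 15 other arterial genes (left) and 6 other venous and lymphatic genes (right) in HE1 (circles), HE2 (squares) and HP (triangles), with bars for the standard error and filled points for a limma adjusted p below 0.05. All 15 arterial genes lie above 0 in HE1 and in HE2, and the filled venous points are Aplnr and Nrp2 below 0.

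The families of most members were read in the same way. Of all tested genes, 0.961% were called higher and 0.406% lower in HE1, 3.82% and 2.24% in HE2, and 0.601% and 0.233% in HP. With so few tested genes in a family, neither a single call nor the absence of calls is read as a result about that family. Of 18 other ephrins and Eph receptors, 11 were tested, and Epha4 fell in HE2 (-0.80, adjusted p = 0.0464) and Efnb1 in HP (-1.30, adjusted p = 0.0171). Of 19 neuropilin ligands and co-receptors, 16 were tested, with Nrp2 lower in HE1 and HE2, as above, and Sema3g and Sema3f (0.92, adjusted p = 0.0335) higher in HE2. Of 4 other Tec family kinases, 2 were tested, and Tec rose in HE1 (1.12, adjusted p = 0.0233) and HE2 (1.09, adjusted p = 0.0124). Among 7 tested genes of the Unc5 receptors, ligands and partners and 3 of the other COUP-TF genes and cofactors, limma called 0 with doxycycline in any population. Of the 12 fits that left out 1 library, 0 kept the Epha4 call, while 9 kept Efnb1 and 9 kept Sema3f, and the Tec calls held in 8 for HE1 and 10 for HE2. Centring on the endothelial markers ended the calls of Sema3f in HE2 (0.29, adjusted p = 0.47) and of Tec in HE1 (1.10, adjusted p = 0.238) and HE2 (0.46, adjusted p = 0.275). The lower calls of Epha4 and Efnb1 held, but centring moved the median of all tested genes downward in HE2 and HP.

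Over the 12 libraries, the genes whose log2(FPKM + 1) was most like each member were found by Pearson correlation among 9458 genes with a group mean of at least 5 FPKM, as a description of libraries that share population and treatment. Gja4 was most like Rhoj (r = 0.993), Sox13 (0.992) and Tcf15 (0.992), and Gja5 most like Nedd9 (0.989), Nts (0.986) and Ccdc184 (0.984). Bmx was most like Slc35b3 (0.961), Tmem255b (0.943) and Serping1 (0.942). Efnb2 was most like Tcf4 (0.991), Stap2 (0.981) and Itga1 (0.981), Unc5b like Pcdh12 (0.994), Flrt2 (0.994) and Pcdh1 (0.993), and Nrp1 like Fat4 (0.996), Plekhg1 (0.992) and Clec14a (0.99). Ephb4 was most like Tspan18 (0.995), Large (0.991) and Flt4 (0.99), and Nr2f2 like Palm (0.986), Stk39 (0.981) and Rhou (0.981). Among the members themselves, r ran from 0.93 to 0.98 for every pair of Gja4, Efnb2, Unc5b, Nrp1 and Ephb4, was 0.86 for Gja5 and Bmx, and was lowest for Bmx and Nr2f2, at 0.22.

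Some members overlap other annotated genes. The antisense gene 4930573H18Rik at Gja5 ran from 0 to 0.201 FPKM and B130024G19Rik at Nr2f2 from 0 to 0.0213 FPKM over the 12 libraries. The library kit keeps strand, while the labels do not say whether the quantification used it.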

How the data were processed

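The deposited tables gave 1 value per gene name and no header. They were read as FPKM made by the authors with StringTie, inferred from the tool named and from sums of 468326 to 579055 per library. Per the submitters' processing notes, the tools were Trimmomatic 0.32, HISAT2 2.1.0 and StringTie 1.3.3 with mm10. The annotation is not named in the labels. Names that occurred more than once in a file (2 to 4 per file) were summed. The depth is unknown, since the tables hold no counts and the smallest steps of low values gave 1 relative scale (within 0.1 log2) for only 19 of 66 pairs of libraries.

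limma 3.58.1 in R 4.3.3, with an intensity trend, was fitted to log2(FPKM + 1) of 13316 genes in all 12 libraries with 6 group means. P-values are two-sided, adjusted by Benjamini-Hochberg over all tested genes, and a call is an adjusted p below 0.05. They measure only the spread between the 2 replicates, pooled over the groups. On simulated data for HE1, HE2 and HP, with 200 of 13316 genes changed, 53%, 56% and 55% of 2-fold and 95%, 97% and 92% of 4-fold changes were recovered. The noise was independent and normal, and changed genes were drawn only from those with an average log2(FPKM + 1) of at least log2(6). Gja5, Bmx and Nr2f2 lie below that cut, so the recovery does not describe them.

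The members and gene lists were chosen with earlier results of these data known. From each list, up to 4 called genes per comparison were named by size of difference. The list of other connexins is not reported here. For each member, the 3 most similar genes were named, leaving out predicted genes. 1 alias, Depp1, was read under its RefSeq synonym. Coordinates and promoter windows came from RefSeq tables of GRCm38.p6, in which all 8 members were found. Alternatives were another pseudocount, no filter, quantile and median scaling, rescaling without 3 abundant features, a library class term, 1 library class, a replicate block, only the groups compared, each library left out and, added after seeing the data, centring on endothelial markers. Python 3.11.15 with numpy 2.4.6, pandas 2.3.3 and matplotlib 3.10.9 was used.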

Additional observations from a re-analysis of the deposited data

How the results depend on the processing

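Counts below are of the 8 members called, and smaller changes in a count are not all listed. In HE1 with doxycycline the count of 1 became 0 with a pseudocount of 0.1, without the filter, with a library class term, the 7 libraries of the low class, or only the groups compared. In HE2 the count of 3 became 1 with no filter and 0 in the low class. Centring on the endothelial markers kept only Gja5 among the HE2 calls and added Efnb2, Ephb4 and Nr2f2 as lower, where 24.5% of all tested genes were called lower. In HP the count of 0 became 2, both lower, with that centring, where 45.2% of all tested genes were called lower. From HE1 to HE2 without doxycycline, a pseudocount of 0.1 ended the Nr2f2 call (limma adjusted p = 0.0752). Quantile normalization, rescaling and a library class term each added Ephb4 (limma adjusted p = 0.0113, 0.012 and 0.0112). The count of 3 became 5 with median scaling and 1 with only the groups compared. With doxycycline the count of 2 became 1 with a pseudocount of 0.1 and 0 with no filter, in the low class or with only the groups compared. From HE2 to HP the low class gave 3 in place of 6 without doxycycline and 0 in place of 8 with it. The low class leaves 1 library in every group but NoDox HE2, so a lone library is assumed to vary like the others. The spread between replicates then rests on NoDox HE2 alone, so fewer calls in the low class are not read as lost effects. The causes of the other changes were not tested. The comparisons of effects kept 0 calls under every alternative run.

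Leaving out each library in turn gave 0 to 1 calls in HE1, 0 to 4 in HE2, 0 to 5 from HE1 to HE2 without doxycycline and 0 to 2 with it.

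With the replicate number as a block, 2 members were called in HE1 (Gja5 in addition, adjusted p = 0.00493) and 4 in HE2 (Nrp1 in addition, adjusted p = 0.0385). From HE1 to HE2 and from HE2 to HP without doxycycline 4 and 7 were called. Only 2 numbers exist and no label ties them to a shared culture or day. Deviations of same-numbered libraries correlated between -0.1 and 0.526, above 0.1 in 12 of 15 pairs of groups (0.082 for the HE1 groups, 0.489 for HE2 and 0.436 for HP). The pairs at or below 0.1 all include NoDox HE1, the only group whose replicate 1 is of the class high in Lars2, Mir6236 and LOC101056014. Whether that class lowered these correlations was not tested. Since not every pair exceeded 0.1, the numbers were not taken as a pairing, and a shared replicate effect is not excluded.

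Directions that turned were of differences that were not called. Efnb2 in HE1 turned to 0.048 with quantile normalization, 0.047 with median scaling and 0.0028 with rescaling. Centring moved the median of all tested genes to -0.82 in HP and was not used for the steps. Signs in HP turned with that shift, to -0.64 for Gja4, -0.32 for Gja5, -0.58 for Efnb2, -0.79 for Bmx, -0.62 for Unc5b and -0.54 for Nrp1 in HP. Ephb4 in HP turned to 0.011 with median scaling and 0.062 in the low class. For the HE2 minus HE1 effect the low class gave 0.027 for Efnb2 and -0.29 for Bmx. A pseudocount of 0.1 gave -0.088 for Nr2f2 in HP minus HE2 and 0.0053 for Gja4 in HP minus HE1, for which the low class gave 0.28. Bmx turned to 0.044 from HE2 to HP without doxycycline with quantile normalization. From HE1 to HE2 with doxycycline it turned to -0.044 with quantile normalization, -0.0041 with rescaling and -0.41 in the low class.

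Without single libraries, signs also turned within these ranges. In HE1 they were -0.038 to 0.42 (Gja4), -0.45 to 0.43 (Efnb2) and -0.16 to 0.27 (Nrp1). In HE2 they were -1.26 to 0.47 (Efnb2) and -0.42 to 0.21 (Unc5b). In HP they were -0.10 to 0.45 (Gja4), -0.0615 to 0.52 (Efnb2), -0.0016 to 0.54 (Nrp1) and -0.29 to 0.29 (Ephb4). For HE2 minus HE1 they were -0.89 to 1.45 (Gja5), -1.24 to 0.49 (Efnb2) and -0.16 to 0.67 (Bmx). For HP minus HE2 they were -0.24 to 1.49 (Efnb2), -0.013 to 0.62 (Unc5b) and -0.039 to 0.54 (Ephb4). For HP minus HE1 they were -0.29 to 0.26 (Gja4), -0.20 to 0.69 (Efnb2) and -0.055 to 0.49 (Nrp1). From HE1 to HE2 they were -2.12 to 0.22 (Gja5) and -1.35 to 0.38 (Efnb2) without doxycycline, and -0.28 to 0.14 (Gja4) and -0.29 to 0.54 (Bmx) with it.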
